A study of Mus musculus with 12 samples.

Results

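N-glycans are sugar trees attached to asparagine residues of secreted and membrane proteins. A precursor tree is transferred to the protein in the endoplasmic reticulum (ER), where glucosidases and mannosidases trim it while the protein folds, and Golgi mannosidases and transferases then remodel it into branched and capped forms. Lectins that bind mannose carry folded glycoproteins from the ER toward the Golgi, and lysosomal and cytosolic enzymes take the glycans apart again. The 34 genes described here encode enzymes of trimming, branching and capping, 2 glycan-releasing enzymes and 3 proteins of lectin-dependent ER export. They were listed by name, and they are 34 of the 38911 genes to which the deposited transcripts were assigned. All 34 passed the filter on low counts, which kept 16966 genes.

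Gastruloids, aggregates of mouse embryonic stem (ES) cells that form an axis in culture, were grown from 1 ES cell line, E14TG2a, labelled 2iLIF in all libraries, with 200 cells plated per aggregate, and polyA RNA was sequenced on day 4. The 4 groups received 1× glucose (21.25 mM), no glucose (0×), 3× glucose (63.75 mM) or 5 mM 2-deoxy-D-glucose (2-DG), a glucose analog, in 1× glucose during the day before harvest. The labels name no engineered allele in any group, and each library pools gastruloids of 1 plate. Each group holds 3 libraries, 1 from each of ES cell passages 13, 15 and 16, which makes 12 libraries in all. Values are gene counts scaled to library size as CPM, with TMM normalization, the fold changes and p-values come from edgeR's quasi-likelihood test across all 12 libraries, and p-values were adjusted over all genes tested, with a call at an adjusted p under 0.05. The fit was repeated with the passage as a block, and that value is given wherever it changes a call.

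The libraries held 31902471 to 45956080 counts (median 35638001). Primitive streak and mesoderm genes, which mark gastruloids, were detected for 10 of 10 listed genes, with a summed level of 719 to 899 CPM in 1× glucose and 355 to 616 CPM in 2-DG, so that these groups did not overlap. Of the 10, 3 fell in 2-DG (*T*, *Mixl1* and *Wnt3a*) and 7 were not called. The summed neural markers were at 182 to 307 CPM in 1× glucose and 220 to 420 CPM in 2-DG, and 4 of 8 tested neural genes rose. Summed pluripotency markers were at 37.7 to 52.8 CPM in 1× glucose and 58.9 to 73.4 CPM in 2-DG, with 1 of 7 higher, and summed endothelial and blood markers at 3.07 to 10.4 and 1.82 to 1.99 CPM, with 1 of 5 lower, so that neither list overlapped between these groups. Definitive endoderm markers were at 96.1 to 260 and 69.6 to 127 CPM, with 2 of 7 lower. Markers of embryonic fibroblast feeders, other cells that ES cell cultures can hold, summed to 71.2 to 160 CPM in 1× glucose and 58.9 to 124 CPM in 2-DG. Of 6 tested, 1 had an unadjusted p under 0.05 in edgeR, and 5 did with the passage as a block. In the fit with the block, 1 feeder gene was called higher and 3 lower. There, 5 mesoderm genes fell, 6 neural genes rose and 1 fell, and 4 pluripotency genes rose. Of the endothelial and blood genes 4 fell, and of the endoderm genes 2 rose and 4 fell. In bulk RNA, a change in the share of a cell type and a change in RNA per cell cannot be told apart, and the part of cell composition in the results on the 34 genes was not tested.

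In 2-DG, 10 of the 34 genes rose and 1 fell against 1× glucose. The genes that rose encode the folding sensor *Uggt1*, the glucosidase II subunit *Prkcsh*, the ER mannosidase *Man1b1*, the lysosomal β-mannosidase *Manba*, the branching enzymes *Mgat2* and *Mgat5*, the cytosolic N-glycanase *Ngly1* and the cargo proteins *Lman1*, *Lman2* and *Mcfd2*. The gene that fell was the sialyltransferase *St3gal3*. Of all genes tested, 9.12% rose and 8.51% fell, beside 29.4% and 2.94% of the 34. The median log2 fold change of the 34 genes was 0.18, and it ran from −0.42 to 1.11, whereas the median over all genes was 0.0023. With the passage as a block, 19 of the 34 rose and 6 fell, beside 21.1% and 20.2% of all genes. When only the most abundant transcript of each gene was counted, 4 stayed called (*Uggt1*, *Mgat2*, *Lman1* and *Lman2*). The other 7 were at 0.46 for *Prkcsh* (adjusted p = 0.463), 0.20 for *Man1b1* (0.938), 0.69 for *Manba* (0.713), 0.12 for *Mgat5* (0.992), −6.63 for *St3gal3* (0.0994), 0.25 for *Ngly1* (0.770) and 0.74 for *Mcfd2* (0.360).

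**Figure D1:**
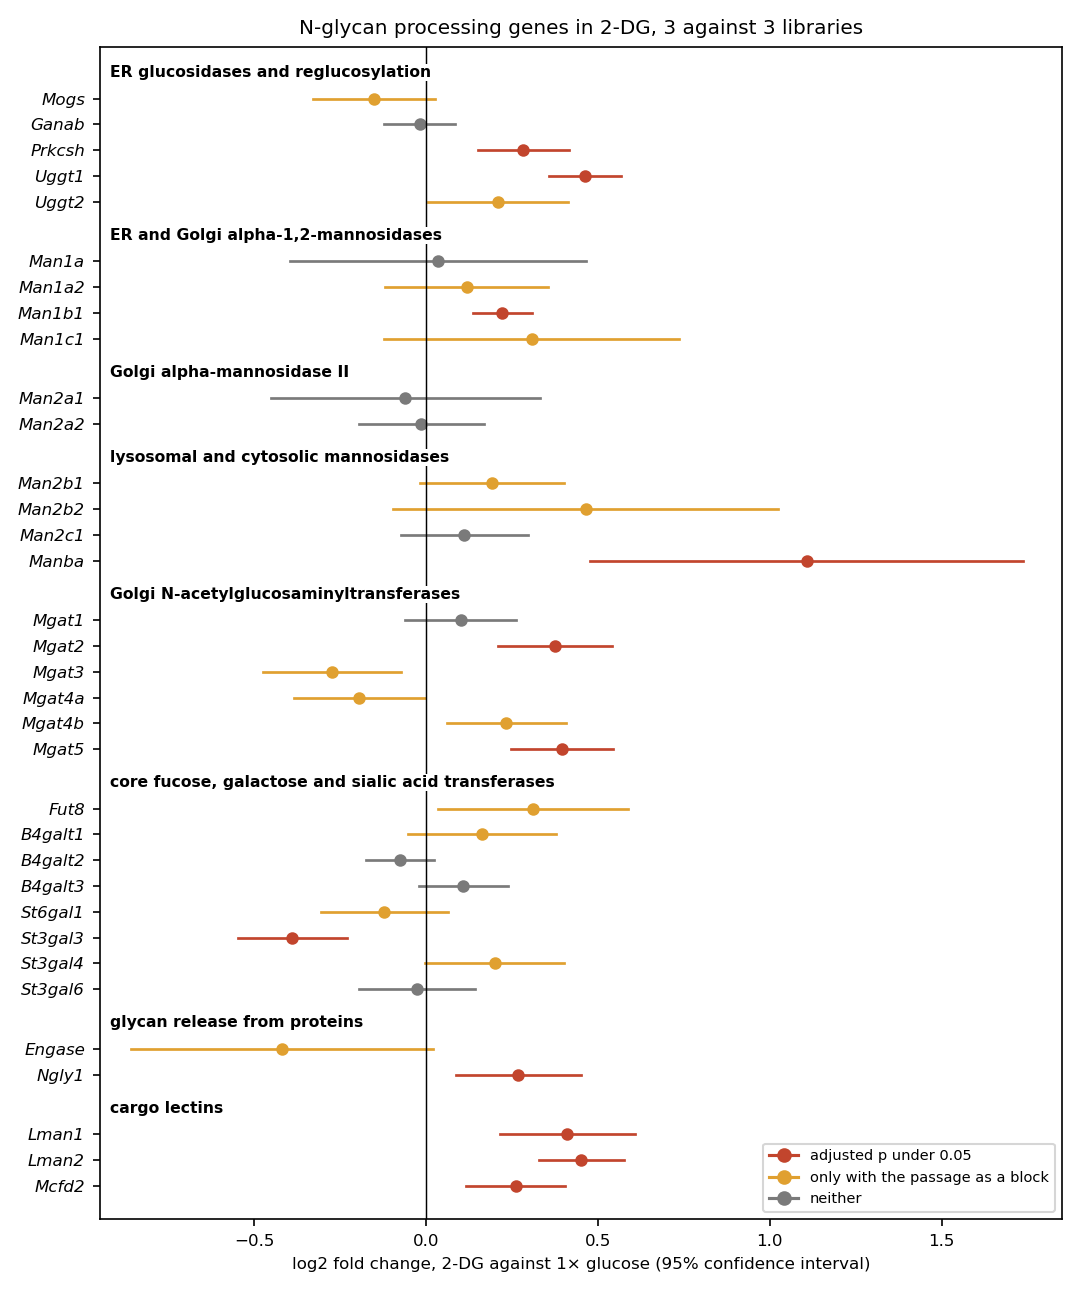
Fold change of each of the 34 genes in 2-DG against 1× glucose on the log2 scale (horizontal axis), as points with 95% confidence intervals and ordered by role, for 3 against 3 libraries. Red marks the 11 genes called without a block, amber the 14 called only with the passage as a block, and grey the 9 called in neither fit. *Manba* lies farthest to the right at 1.11, and all 3 cargo genes lie to the right of 0.

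The 5 genes of the first trimming step and of reglucosylation did not move alike. *Uggt1* encodes the glucosyltransferase that puts a glucose back on misfolded glycoproteins and so returns them to the chaperones calnexin and calreticulin. In passages 13, 15 and 16, *Uggt1* was at 231, 235 and 224 CPM in 2-DG and at 156, 170 and 174 CPM in 1× glucose. It was at 170, 181 and 175 CPM without glucose and at 162, 169 and 167 CPM in 3× glucose, so that each 2-DG library lay above each of the other 9. The log2 fold change in 2-DG against 1× glucose was 0.46 ± 0.05 (SE, adjusted p = 0.000249), which is 1.38-fold.

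*Prkcsh* encodes the non-catalytic β subunit of glucosidase II, which keeps the enzyme in the ER. In passages 13, 15 and 16 it was at 179, 171 and 155 CPM in 2-DG, at 133, 142 and 140 CPM in 1× glucose, at 145, 151 and 138 CPM without glucose and at 128, 138 and 138 CPM in 3× glucose. The 2-DG libraries lay above all others, by a small margin against the 0× library of passage 15. Against 1× glucose the log2 fold change was 0.28 ± 0.06 (adjusted p = 0.0100). *Ganab*, which encodes the catalytic α subunit of the same enzyme, was at 339 to 354 CPM in 2-DG and 339 to 363 CPM in 1× glucose, with a log2 fold change of −0.02 (95% confidence interval −0.12 to 0.09). *Mogs*, which encodes glucosidase I and acts first on the precursor, had a log2 fold change of −0.15 ± 0.08 (adjusted p = 0.224, and 0.0110 with the block). *Uggt2*, a paralog of *Uggt1*, had one of 0.21 ± 0.09 (adjusted p = 0.148, and 0.00452 with the block). Per kilobase of transcript, *Ganab* was the highest of the 34 genes in 1× glucose, at 92.4 CPM per kb, ahead of *Prkcsh* at 68.6 and *Lman1* at 50.8.

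The promoters of members that rose were set beside that of *Hspa5*, the ER chaperone BiP and a standard target of the unfolded protein response (UPR), which rose by 1.12 ± 0.08 on the log2 scale in 2-DG (adjusted p = 5.12e-05). The sequences are from RefSeq on GRCm38.p6, 5′ to 3′ on the strand of the gene, and capitals mark CCAAT and CCACG, which make up the ER stress element (ERSE), on either strand, and TCACGTGA, an element of lysosomal genes (CLEAR). All stretches end before the start site used for that gene. For *Uggt1* the annotated gene reaches chr1:36244320, so the last part of its stretch lies inside the annotated gene.
Hspa5 (chr2:34771940-34772089, plus strand, 150 to 1 bases before the start): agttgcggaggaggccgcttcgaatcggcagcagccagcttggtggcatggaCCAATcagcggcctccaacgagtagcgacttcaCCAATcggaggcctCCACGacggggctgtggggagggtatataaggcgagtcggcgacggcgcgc
Uggt1 (chr1:36244303-36244452, minus strand, 150 to 1 bases before the start): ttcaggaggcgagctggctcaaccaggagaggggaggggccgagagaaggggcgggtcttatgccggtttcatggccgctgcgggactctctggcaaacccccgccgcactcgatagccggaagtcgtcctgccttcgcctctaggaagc
Lman2 (chr13:55362784-55362933, minus strand, 150 to 1 bases before the start): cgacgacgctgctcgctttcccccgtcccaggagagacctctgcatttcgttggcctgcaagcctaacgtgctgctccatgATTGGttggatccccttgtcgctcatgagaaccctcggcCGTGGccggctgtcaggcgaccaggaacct
Manba (chr3:135485461-135485610, plus strand, 150 to 1 bases before the start): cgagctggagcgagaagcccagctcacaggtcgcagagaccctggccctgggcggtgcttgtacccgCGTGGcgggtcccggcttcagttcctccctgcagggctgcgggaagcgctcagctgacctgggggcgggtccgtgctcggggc
Prkcsh (chr9:22002738-22002887, plus strand, 250 to 101 bases before the start): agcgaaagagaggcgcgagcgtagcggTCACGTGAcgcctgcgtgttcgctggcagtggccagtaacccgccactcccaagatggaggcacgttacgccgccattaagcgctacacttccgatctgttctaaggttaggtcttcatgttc

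The *Hspa5* stretch holds a complete ERSE, CCAAT and CCACG with 9 bases between them, whereas the *Lman2* stretch holds both parts in another order and at another spacing, and in the *Uggt1* stretch neither was found. Windows from 250 bases before to 50 after the start were searched on both strands for 29 of the 34 genes, all except *Man1a2*, *Man2a2*, *Mgat3*, *Mgat4b* and *Lman1*. The complete ERSE was in 0 of these 29 genes, in 4 of 12 genes of the UPR list and in 0.119% of all 32851 windows. ERSE-II (ATTGG followed after 1 base by the CCACG that also ends ERSE) was in 0 of the 29 genes and 0.0365% of windows, the UPR element TGACGTGG in 0 and 0.676%, and the amino acid response element TTGCATCA in 0 and 0.895%. The CLEAR palindrome TCACGTGA was in 1 of the 29, *Prkcsh*, and in 0.974% of windows. In *Prkcsh* it lay at chr9:22002765-22002772, 223 to 216 bases before the start. The other elements were also rare in the 12 genes of the UPR list. There, ERSE-II was in 1, the UPR element in 0, the amino acid response element in 2 and CLEAR in 0. All of these are matches of letters in a short window and say nothing of binding.

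The α1,2-mannosidases remove mannose residues in the ER and the Golgi and are the class that 1-deoxymannojirimycin inhibits. *Man1b1* encodes the ER member, which also marks glycoproteins for ER-associated degradation (ERAD). In passages 13, 15 and 16 it was at 123, 126 and 119 CPM in 2-DG, at 106, 105 and 105 CPM in 1× glucose, at 102, 108 and 103 CPM without glucose and at 106, 103 and 107 CPM in 3× glucose. The 9 libraries without 2-DG lay within a few CPM of each other, and each 2-DG library lay above them. The log2 fold change in 2-DG against 1× glucose was 0.22 ± 0.04 (adjusted p = 0.00395), which is 1.17-fold.

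The 3 Golgi α1,2-mannosidase genes were not called without the block. *Man1a2* was at 140, 151 and 149 CPM in 2-DG and at 115, 148 and 142 CPM in 1× glucose. It was at 124, 149 and 142 CPM without glucose and at 119, 149 and 137 CPM in 3× glucose. Its log2 fold change was 0.12 ± 0.11 (adjusted p = 0.506, and 0.0412 with the block). *Man1c1* was at 16.7, 11.7 and 13 CPM in 2-DG and at 13.2, 9.05 and 11.3 CPM in 1× glucose, so that each passage was higher in 2-DG while the groups overlapped. It was at 14.8, 10.8 and 12.8 CPM without glucose and at 14.4, 9.84 and 11.9 CPM in 3× glucose. Its log2 fold change was 0.31 ± 0.19 (adjusted p = 0.317, and 0.00452 with the block). *Man1a* was low in every library, at 5.45, 4.33 and 5.51 CPM in 2-DG and 5.93, 3.84 and 5.14 CPM in 1× glucose. It was at 5.59, 3.88 and 4.13 CPM without glucose and at 5.45, 4.24 and 4.84 CPM in 3× glucose, and its log2 fold change of 0.03 had a 95% confidence interval of −0.40 to 0.47.

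Golgi α-mannosidase II trims the hybrid glycan after the first N-acetylglucosamine has been added and is a target of swainsonine, which the study used on gastruloids. In passages 13, 15 and 16, *Man2a1* was at 62.9, 94.8 and 84.9 CPM in 2-DG, at 67.1, 92.3 and 93.6 CPM in 1× glucose, at 76.0, 103 and 90.3 CPM without glucose and at 73.1, 94.0 and 88.1 CPM in 3× glucose. The passage 13 library was the lowest of each group, and the groups overlapped. *Man2a2* was at 93.4, 104 and 103 CPM in 2-DG, at 92.9, 101 and 110 CPM in 1× glucose, at 103, 96.5 and 110 CPM without glucose and at 98.1, 102 and 115 CPM in 3× glucose. The log2 fold changes in 2-DG against 1× glucose were −0.06 for *Man2a1* (95% confidence interval −0.45 to 0.33) and −0.01 for *Man2a2* (−0.20 to 0.17), and neither was called in either fit. Against 0× glucose, *Man2a1* was at −0.15 ± 0.18 (adjusted p = 0.609, and 0.0287 with the block, where it was lower).

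Of the mannosidases of glycan breakdown, *Manba* changed most. It encodes the lysosomal β-mannosidase, which removes the last mannose of the core. It was the lowest of the 34 genes per kilobase in 1× glucose, at 0.516 CPM per kb. In passages 13, 15 and 16 it was at 5.04, 3.51 and 3.76 CPM in 2-DG, at 2.68, 1.39 and 1.62 CPM in 1× glucose, at 2.24, 1.58 and 1.63 CPM without glucose and at 2.87, 1.65 and 2.52 CPM in 3× glucose. The log2 fold change in 2-DG against 1× glucose was 1.11 ± 0.29 (adjusted p = 0.0237), which is 2.15-fold. Without the block the call rested on single libraries, with an adjusted p of 0.0838 without 2-DG passage 13, 0.0897 without 1× passage 15 and 0.0783 without 1× passage 16, at log2 fold changes of 0.93, 0.92 and 1.00. With the block and all libraries, *Manba* was at 1.14 ± 0.13 (adjusted p = 0.000101).

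*Man2b1*, the lysosomal α-mannosidase that swainsonine also inhibits, was at 51.1, 45.7 and 51.0 CPM in 2-DG and at 44.0, 39.1 and 46.1 CPM in 1× glucose. It was at 45.9, 39.3 and 42.4 CPM without glucose and at 47.8, 38.4 and 43.1 CPM in 3× glucose. The groups overlapped, since the 1× library of passage 16 was above the 2-DG library of passage 15. Its log2 fold change was 0.19 ± 0.09 (adjusted p = 0.194, and 0.00673 with the block). *Man2b2*, a second lysosomal α-mannosidase, had a log2 fold change of 0.46 ± 0.25 (adjusted p = 0.243, and 0.00943 with the block), and *Man2c1*, the cytosolic α-mannosidase, one of 0.11 ± 0.08 (adjusted p = 0.412). As a measure beside these, 8 of 11 other lysosomal genes rose in 2-DG, with a median log2 fold change of 0.30. Not all of the 11 encode enzymes of glycan breakdown. The 8 included the membrane proteins *Lamp1* at 0.30 and *Lamp2* at 0.23, beside the sialidase *Neu1* at 0.83 and the β-galactosidase *Glb1* at 0.64.

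**Figure D2:**
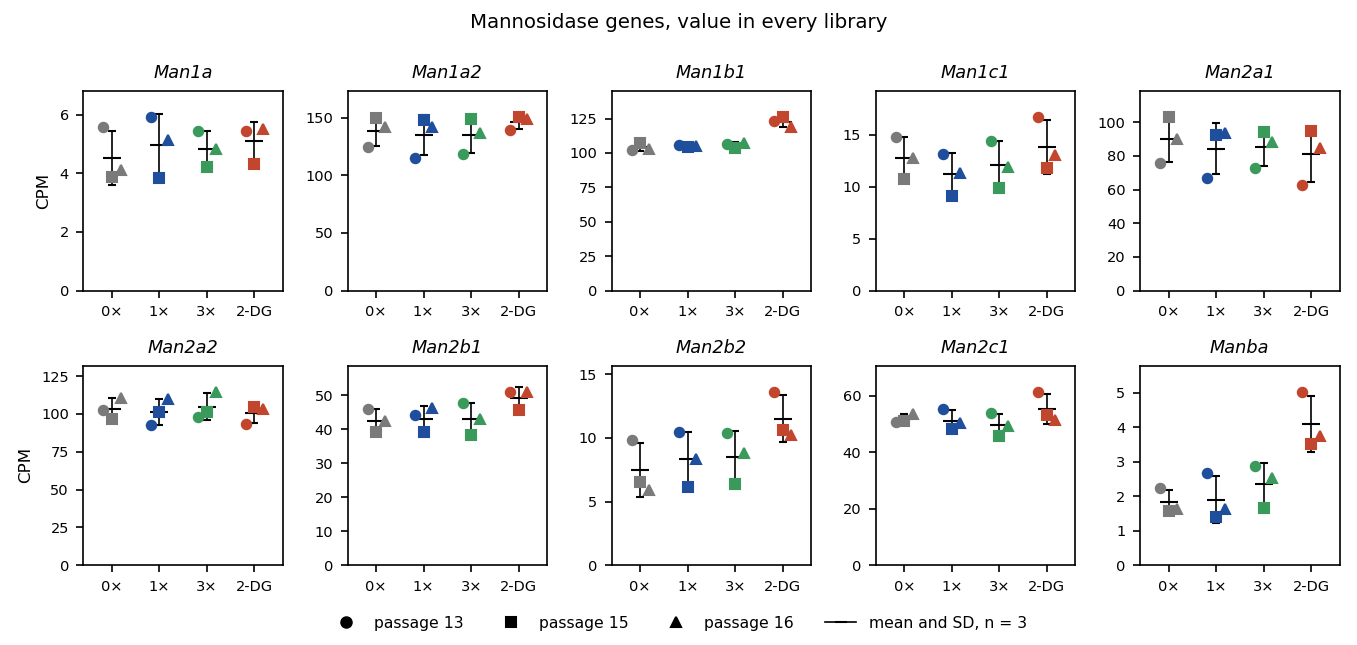
CPM (vertical axis, from 0) of the 10 mannosidase genes in every library by group (horizontal axis), with circles for passage 13, squares for 15 and triangles for 16, and bars for the mean and SD of 3 libraries. *Man1b1* and *Manba* are higher in the 3 2-DG libraries than in the other 9, whereas *Man2a1* is lowest in passage 13 in each group.

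The N-acetylglucosaminyltransferases start the branches of the glycan. *Mgat2*, which starts the second branch, was at 80.3, 91.0 and 80.8 CPM in 2-DG, at 61.7, 66.2 and 66.5 CPM in 1× glucose, at 57.8, 61.3 and 66.9 CPM without glucose and at 60.9, 68.2 and 69.1 CPM in 3× glucose. *Mgat5*, which adds the β1,6 branch, was at 34.1, 35.3 and 37.4 CPM in 2-DG, at 24.6, 27.7 and 29.0 CPM in 1× glucose, at 27.1, 28.0 and 26.9 CPM without glucose and at 29.4, 29.3 and 29.1 CPM in 3× glucose. For both genes, each 2-DG library lay above the other 9. The log2 fold changes in 2-DG against 1× glucose were 0.38 ± 0.07 for *Mgat2* (adjusted p = 0.00736) and 0.40 ± 0.07 for *Mgat5* (adjusted p = 0.00327).

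The paralogs *Mgat4a* and *Mgat4b*, whose enzymes add the same β1,4 branch, had fold changes of opposite sign. *Mgat4a* was at 20.3, 19.5 and 19.98 CPM in 2-DG, at 24.1, 21.2 and 23.0 CPM in 1× glucose, at 26.8, 24.5 and 22.9 CPM without glucose and at 26.0, 21.7 and 23.3 CPM in 3× glucose. *Mgat4b* was at 41.1, 44.1 and 46.2 CPM in 2-DG, at 36.4, 34.7 and 40.6 CPM in 1× glucose, at 33.7, 37.7 and 37.9 CPM without glucose and at 37.3, 37.7 and 41.5 CPM in 3× glucose. Each 2-DG library was thus below the other 9 for *Mgat4a*, and above the 0× and 1× libraries but not all 3× libraries for *Mgat4b*. In 2-DG against 1× glucose, *Mgat4a* was at −0.19 ± 0.09 (adjusted p = 0.151, and 0.0297 with the block) and *Mgat4b* at 0.23 ± 0.08 (adjusted p = 0.0643, and 0.00292 with the block). Against 0× glucose both were called without the block, *Mgat4a* at −0.31 ± 0.09 (adjusted p = 0.0299) and *Mgat4b* at 0.27 ± 0.08 (adjusted p = 0.0383).

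Without the block, both calls against 0× glucose depended on single libraries, with 5 of 6 omissions ending each. With the block and all libraries, the adjusted p was 0.00253 for *Mgat4a* and 0.00138 for *Mgat4b*. The values that follow are without the block. For *Mgat4a* the adjusted p was 0.104 without 0× passage 13, 0.0775 without 0× passage 15, and 0.0700, 0.102 and 0.0864 without 2-DG passage 13, 15 and 16, at log2 fold changes of −0.25, −0.32, −0.32, −0.29 and −0.31. For *Mgat4b* it was 0.118, 0.0727 and 0.0649 without 0× passage 13, 15 and 16 and 0.0977 and 0.119 without 2-DG passage 15 and 16, at log2 fold changes of 0.22, 0.29, 0.30, 0.26 and 0.23. *Mgat3*, whose enzyme adds the bisecting N-acetylglucosamine, had a log2 fold change of −0.27 ± 0.09 in 2-DG against 1× glucose, with no overlap between the groups (adjusted p = 0.0621, and 0.0181 with the block). *Mgat1*, which starts the first branch and on which the later steps depend, was at 0.10 ± 0.07 (adjusted p = 0.392).

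Of the 8 transferases that add core fucose, galactose or sialic acid, 1 was called. *St3gal3*, an α2,3-sialyltransferase, was at 19.1, 19.9 and 18.9 CPM in 2-DG, at 23.6, 25.5 and 26.7 CPM in 1× glucose, at 25.2, 27.9 and 27.6 CPM without glucose and at 23.7, 24.2 and 26.3 CPM in 3× glucose. Each 2-DG library lay below the other 9, and the log2 fold change against 1× glucose was −0.39 ± 0.07 (adjusted p = 0.00504), which is 0.764-fold. With the block, *Fut8* (the core fucosyltransferase) rose at 0.31 ± 0.05 (adjusted p = 0.000418, against 0.115 without it), *B4galt1* (a galactosyltransferase) at 0.16 ± 0.05 (0.0191 against 0.284) and *St3gal4* at 0.20 ± 0.07 (0.0481 against 0.165), while *St6gal1* (the α2,6-sialyltransferase) fell at −0.12 ± 0.04 (0.0311 against 0.361). *B4galt2*, *B4galt3* and *St3gal6* were called in neither fit, at −0.08, 0.11 and −0.03. *St3gal6* shares 1603 exonic bases with *Dcbld2* on the opposite strand, which had a mean count of 4639 per library against 473 for *St3gal6*, and the strand setting of the counting is not stated, so its values are uncertain. Among 17 other tested genes, of sugar transferases and nucleotide sugar transporters, 3 rose and 2 fell in 2-DG. Not all of the 17 are particular to N-glycans. The 2 that fell were the sialyltransferases *St3gal1* at −0.61 and *St3gal5* at −0.29. Those that rose included the galactosyltransferase *B4galt4* at 0.36 and the transporter *Slc35a2* at 0.28.

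*Ngly1* encodes the cytosolic enzyme that strips N-glycans from proteins that leave the ER for degradation. In passages 13, 15 and 16 it was at 15.1, 13.2 and 13.6 CPM in 2-DG, at 11.5, 12 and 11.3 CPM in 1× glucose, at 11.0, 11.98 and 11.3 CPM without glucose and at 9.95, 9.90 and 10.6 CPM in 3× glucose. Each 2-DG library lay above the other 9, and each 3× library lay below the other 9. The log2 fold change in 2-DG against 1× glucose was 0.27 ± 0.08 (adjusted p = 0.0470, and 0.0219 with the block). No call remained in any of the 6 fits without 1 library, which had no block. The adjusted p was 0.105, 0.0930 and 0.117 without 1× passage 13, 15 and 16, and 0.152, 0.0659 and 0.0753 without 2-DG passage 13, 15 and 16, at log2 fold changes of 0.20 to 0.30. *Engase*, which cleaves within the core of free glycans in the cytosol, had a log2 fold change of −0.42 ± 0.20, with no overlap between the groups (adjusted p = 0.177, and −0.39 ± 0.11 with adjusted p = 0.0129 with the block).

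The 3 cargo genes all rose. *Lman1* encodes ERGIC-53, a mannose-binding receptor that cycles between ER and Golgi, and *Mcfd2* its soluble partner. *Lman1* was at 238, 252 and 235 CPM in 2-DG, at 162, 197 and 186 CPM in 1× glucose, at 169, 196 and 198 CPM without glucose and at 159, 188 and 179 CPM in 3× glucose. *Mcfd2* was at 64.8, 57.0 and 57.0 CPM in 2-DG, at 52.2, 48.3 and 48.7 CPM in 1× glucose, at 49.7, 48.2 and 46.1 CPM without glucose and at 50.4, 47.7 and 45.8 CPM in 3× glucose. Each 2-DG library lay above the other 9 for both genes, and the log2 fold changes against 1× glucose were 0.41 ± 0.09 for *Lman1* (adjusted p = 0.0109) and 0.26 ± 0.07 for *Mcfd2* (adjusted p = 0.0207). In fits with no block, the *Mcfd2* call was lost without 2-DG passage 13 (0.0765), 1× passage 15 (0.0865) or 1× passage 16 (0.0654), at log2 fold changes of 0.19, 0.23 and 0.24. With the block and all libraries, its adjusted p was 0.000285.

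*Lman2* encodes VIP36, a lectin for high-mannose glycans. It was at 241, 230 and 204 CPM in 2-DG, at 161, 168 and 164 CPM in 1× glucose, at 162, 169 and 168 CPM without glucose and at 159, 163 and 165 CPM in 3× glucose. The 9 libraries without 2-DG spanned 159 to 169 CPM, well below the lowest 2-DG library. *Lman2* rose by 0.45 ± 0.06 on the log2 scale against 1× glucose (adjusted p = 0.00071), which is 1.37-fold. Of 11 other cargo receptors tested, 8 rose in 2-DG, with a median log2 fold change of 0.34, led by *Kdelr3* at 1.22 and *Surf4* at 0.74, which retrieve or export ER proteins, and by the cargo receptors *Tmed2* at 0.50 and *Tmed10* at 0.48.

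**Figure D3:**
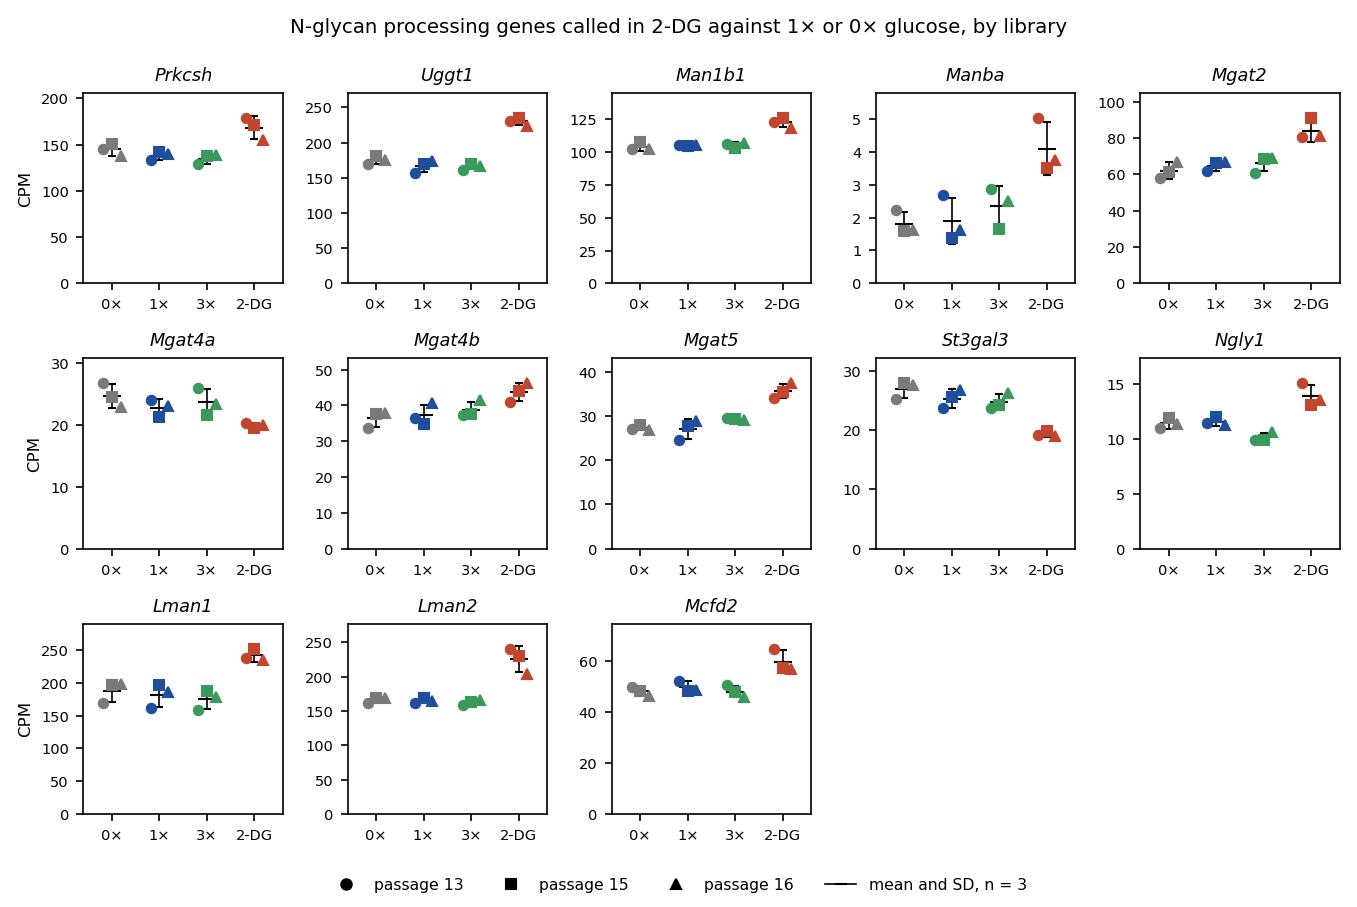
CPM (vertical axis, from 0) of the 13 genes called in 2-DG against 1× or 0× glucose, in every library by group (horizontal axis), with symbols for the 3 passages and bars for the mean and SD of 3 libraries. In 12 of the 13 genes each 2-DG library lies outside the range of the other 9, above it in 10 and below it in *Mgat4a* and *St3gal3*, and in *Mgat4b* 1 library of 3× glucose lies among those of 2-DG.

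Over the 34 genes, the 2-DG libraries lay above those of 1× glucose without overlap for 14 genes and below for 4, beside 18.3% and 17.2% of all genes tested. They lay above the other 9 libraries for 11 genes and below for 2, beside 12.1% and 11.3% of all genes. The 11 above were 10 of the called genes and *St3gal4*. Genes of the calnexin cycle and ERAD, into which several of the 34 feed, rose in 13 of 15 cases in 2-DG, with a median log2 fold change of 0.59. They were led by *Derl3* at 3.50, *Syvn1* at 1.08, *Calr* at 1.01 and *Pdia3* at 0.86. The UPR list rose in 14 of 14 cases with a median of 1.21, and its summed level was 2222 to 2372 CPM in 1× glucose, 2437 to 2588 CPM without glucose, 2168 to 2388 CPM in 3× glucose and 4493 to 5575 CPM in 2-DG. These lists were chosen with earlier results of these data known, and of all genes tested 9.12% rose in 2-DG against 1× glucose. The part of the UPR in the values of the 34 genes was not tested.

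Glucose dose on its own gave no call among the 34 genes. In 0× against 1× glucose, 0 of 34 were called by edgeR (0 at an unadjusted p under 0.05, and 0 with DESeq2), beside 0.0118% of all genes called and 1.8% at an unadjusted p under 0.05. The log2 fold changes ran from −0.17 for *Engase* to 0.19 for *Man1c1* (both with an adjusted p of 1.00), with a median of 0.014 and standard errors of 0.04 to 0.29. In 3× against 1× glucose, 0 of 34 were called by edgeR (1 at an unadjusted p under 0.05, and 0 with DESeq2), beside 0% of all genes called and 1.05% at an unadjusted p under 0.05. The log2 fold changes ran from −0.19 for *Ngly1* (unadjusted p = 0.0442) to 0.30 for *Manba* (± 0.29), with a median of −0.0048. In 3× against 0× glucose, 0 of 34 were called by edgeR (0 at an unadjusted p under 0.05, and 0 with DESeq2), beside 0.0118% of all genes called and 4.33% at an unadjusted p under 0.05. With the block, 0 of 34 were called in this comparison, beside 0.802% of all genes. At an unadjusted p under 0.05 there were then 5 of 34 (14.7%), beside 16.2% of all genes. By the same measure with the block, 0× against 1× glucose had 1 of 34 (2.9%), beside 9.38% of all genes. For 3× against 1× glucose it was 2 of 34 (5.9%), beside 5.16%.

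The difference between 2-DG and the absence of glucose was tested directly. In 2-DG against 0× glucose, 11 of the 34 genes were higher and 2 were lower, beside 9.86% and 9.04% of all genes tested. With the block, 15 were higher and 4 lower, beside 21.5% and 21.5%. The 13 genes were the 11 called against 1× glucose, with *Mgat4a* and *Mgat4b* added. Counting only the most abundant transcript left 3 of them called, *Uggt1*, *Mgat2* and *Lman2*. The log2 fold changes against 0× glucose were 0.39 ± 0.05 for *Uggt1* (adjusted p = 0.000552), 0.43 ± 0.06 for *Lman2* (0.00075), 0.24 ± 0.04 for *Man1b1* (0.00263), 0.44 ± 0.07 for *Mgat2* (0.00317), 0.38 ± 0.07 for *Mgat5* (0.00365) and −0.48 ± 0.07 for *St3gal3* (0.00168). They were 0.31 ± 0.07 for *Mcfd2* (0.00863), 0.36 ± 0.09 for *Lman1* (0.0173), 1.17 ± 0.29 for *Manba* (0.0180), 0.22 ± 0.06 for *Prkcsh* (0.0302) and 0.28 ± 0.08 for *Ngly1* (0.0358).

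Without the block, the calls against 0× glucose of 4 of these genes rested on single libraries. With the block and all libraries, the adjusted p was 0.000119 for *Lman1*, 8.61e-05 for *Manba*, 0.00671 for *Prkcsh* and 0.0168 for *Ngly1*. Where a call was lost without 1 library, in fits with no block, the log2 fold changes stayed at 0.34 for *Lman1*, 1.00 to 1.10 for *Manba*, 0.17 to 0.22 for *Prkcsh* and 0.23 to 0.32 for *Ngly1*. For *Lman1* the adjusted p was 0.0534 without 2-DG passage 15. For *Manba* it was 0.0667 without 2-DG passage 13, 0.0699 without 0× passage 15 and 0.0654 without 0× passage 16. For *Prkcsh* it was 0.0617 and 0.102 without 0× passage 13 and 16, and 0.100 and 0.0808 without 2-DG passage 13 and 15. For *Ngly1* it was 0.0955, 0.0566 and 0.0939 without 0× passage 13, 15 and 16, and 0.116 and 0.0560 without 2-DG passage 13 and 16. With the block, *Fut8* (0.32 ± 0.05, adjusted p = 0.000379), *Man2b2* (0.65 ± 0.12, 0.00192), *Man2b1* (0.21 ± 0.05, 0.00409) and *Uggt2* (0.14 ± 0.05, 0.0333) were also higher in 2-DG than in 0× glucose, and *Man2a1* and *St6gal1* (−0.15 ± 0.04, 0.0132) lower.

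**Figure D4:**
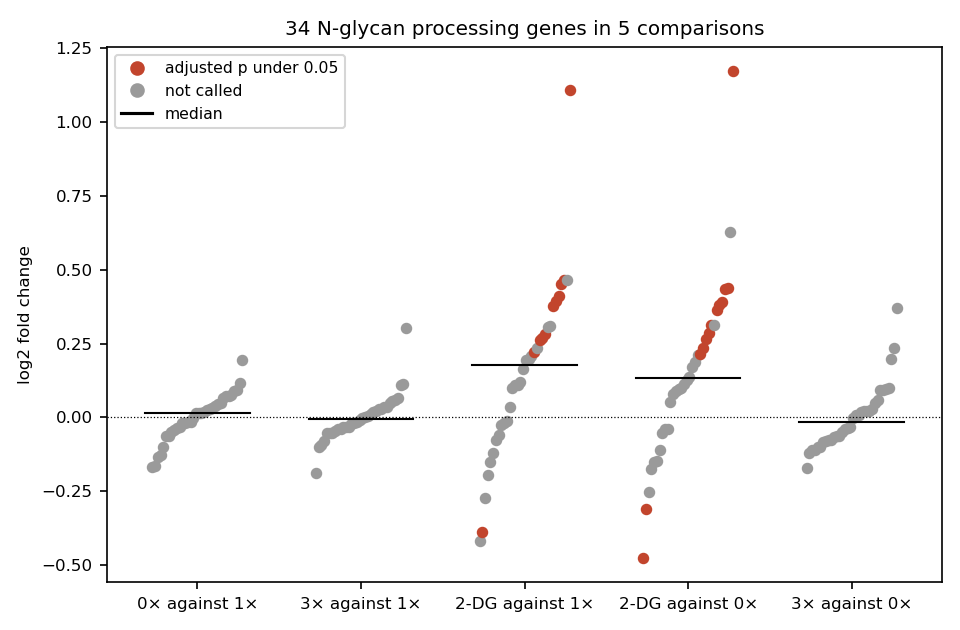
Log2 fold change (vertical axis) of the 34 genes in each of 5 comparisons (horizontal axis), each point 1 gene in rank order, red where the adjusted p was under 0.05, with a line at the median. The points of the comparisons of glucose doses lie between −0.19 and 0.37, and those of 2-DG reach 1.11 against 1× glucose and 1.17 against 0× glucose.

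The 34 genes also varied between the ES cell passages, with treatment as the other term. The test over the 3 passages called 20 of 34 genes (58.8%), beside 46.2% of all genes. Each passage is 1 set of 4 libraries, 1 per treatment, and the p-values treat the libraries of a set as replicates. A difference between passages therefore cannot be told apart from any other difference between these sets, such as one of culture or preparation. Of the 10 mannosidase genes, 9 were called, all but *Man1b1*. *Man2a1* had a mean of 69.8 CPM in passage 13 (range over the 4 treatments 62.9 to 76.0), 96.1 in passage 15 (92.3 to 103) and 89.2 in passage 16 (84.9 to 93.6), an adjusted p of 5.66e-05. *Man1c1* ran the other way, with means of 14.8, 10.3 and 12.2 CPM (adjusted p = 0.000223), as did *Man2b2* with 11.1, 7.42 and 8.34 CPM (0.0027), *Manba* with 3.21, 2.03 and 2.38 CPM (0.00247) and *Engase* with 18.6, 13.5 and 14.3 CPM (0.00503). Of the 11 genes called in 2-DG against 1× glucose, 4 also differed between passages (*Manba*, *Mgat2*, *Lman1* and *Mcfd2*), and 7 were not called there.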

How the data were processed

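The authors deposited, for each of the 12 libraries, StringTie estimated counts of 120312 RefSeq transcripts, with Trim Galore, HISAT2, SAMtools and Picard named as the earlier tools in the submitters' processing notes, on build mm10 (versions and strand setting not given in the sources used here). All values were whole numbers. Their 3 tables of DESeq2 fold changes and p-values were not used.

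Transcripts were summed per gene symbol (RefSeq table, GRCm38.p6). Genes were filtered by filterByExpr, normalized by TMM and fitted with edgeR 4.0.16 in R 4.3.3 (glmQLFit, glmQLFTest, 4 groups, no block, two-sided, Benjamini-Hochberg, threshold 0.05). Each SE was derived from the F statistic. Levels per kb used the median GENCODE M21 transcript length. On simulated data, 164 of 200 genes with a log2 fold change of 1 were recovered among 16711 genes. The changed genes were drawn from those with higher counts, and smaller changes were not simulated. In 2-DG against 1× glucose, 1 of the 34 genes had an absolute log2 fold change over 1, so recovery at the size of most of them is not known. Alternatives were no filter, median-of-ratios factors, DESeq2 1.42.0, the passage as a block, a fit of only the groups compared, the most abundant transcript and leaving out a library or passage 13. In the treatment comparisons, libraries were left out only in fits with no block.

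The passage is a shared cell batch given in the titles. Deviations from group means correlated at 0.0963 to 0.623 in 18 pairs of libraries of 1 passage and at −0.44 to 0.191 in 36 pairs of different passages, all across genes. None of the 12 pairs of libraries within a group agreed within sampling noise. Precision is set by 3 libraries a group, and an exact permutation test of 3 against 3 could not go below p = 0.1.

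The 34 genes and the lists were chosen with earlier results of these data known. Values are given in every library for each gene called in any comparison and for the targets of swainsonine and 1-deoxymannojirimycin, and up to 4 called genes per other list are named. *T*, *Mixl1* and *Wnt3a* are the called genes of the mesoderm list.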

Additional observations from a re-analysis of the deposited data

How the results depend on the processing

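Of the 34 genes, 11 were called in 2-DG against 1× glucose, 25 with the passage as a block and 4 with the most abundant transcript alone. In 2-DG against 0× glucose, 13 were called, 19 with the passage as a block and 3 with the most abundant transcript, and between passages 20 and 3. Across the fits that left out 1 library, the calls ranged from 8 to 10, from 9 to 10 and from 15 to 19 in these comparisons. Under no filter, median-of-ratios factors, DESeq2, only the groups compared or without passage 13, the counts stayed within 1.5 times. In the glucose comparisons 0 genes were called under every alternative run. StringTie divided reads between transcripts unevenly among libraries, so that the top transcript of *Ganab* held 15.8% to 62.2% of its counts. Of called genes, it held 0% to 76.3% in *St3gal3*, 0.214% to 100% in *Mgat5* and 11.6% to 100% in *Manba*, but 99.4% to 99.7% in *Uggt1*. *Mgat4b* has 1 listed transcript, and its call against 0× glucose was also lost when only top transcripts were counted (0.27, adjusted p = 0.147 in edgeR).

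The block changed 14 calls in 2-DG against 1× glucose and 6 against 0× glucose, given with the results, and no other call. Against 1× glucose, calls of *Ngly1* and *Mcfd2* were also lost with no filter and with only the groups compared, that of *Manba* with only the groups compared and that of *Ngly1* without passage 13. Against 0× glucose, calls of *Mgat4a*, *Mgat4b* and *Ngly1* were lost under all 3 of these settings and that of *Prkcsh* under the last 2. Some log2 fold changes changed sign, all but 2 of them not called before (*Mgat5* at 0.38 and *Mgat4a* at −0.31 against 0× glucose). Against 1× glucose these were, with the most abundant transcript, *Ganab* (0.25), *Man2b1* (−0.014), *Mgat1* (−0.045) and *St3gal6* (0.34, and 0.0041 without passage 13). Over the fits without 1 library, the values crossed 0 in *Man1a* (−0.13 to 0.18), *Man2a1* (−0.20 to 0.091), *Man2a2* (−0.073 to 0.048) and *Ganab* (−0.048 to 0.0014). Against 0× glucose they were, with the most abundant transcript, *Man2a1* (0.030), *Mgat1* (−0.048), *Mgat4a* (0.033), *Mgat5* (−0.74) and *St3gal6* (−0.76), and without passage 13 *Man2a2* (0.0060) and *Man2c1* (−0.0016). Without 1 library they were *Mgat1* (−0.0021 to 0.099), *Man1c1* (−0.042 to 0.24), *Man2a1* (−0.28 to 0.0037) and *Man2a2* (−0.086 to 0.011). In 0× against 1× glucose, *Engase* ran from −0.39 to 0.022 without 1 library. The cause was not tested.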
